A study of Caenorhabditis elegans with 8 samples.

Results

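The genes described here are those whose transcript level went with the lamin Y59C transgene whether or not the chromatin anchor CEC-4 was present. Total RNA of first-stage (L1) Caenorhabditis elegans larvae had been sequenced in 8 libraries, 2 (named a and b) for each of 4 strains, and all 8 were used. The 4 libraries of the 2 strains that carry the transgene were set against the 4 libraries of the 2 strains that do not, in 1 model with a term for the transgene, a term for the cec-4 mutation and no interaction. Of 14355 genes tested, 152 were called for the transgene term.

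The strains with the transgene were lamin Y59C, which carries the integrated array ygIs with GFP-lmn-1 Y59C driven by baf-1p and an unc-119(+) rescue copy in an unc-119(ed-3) background, and lamin Y59C cec-4, which has the same array and background together with cec-4(ok3124) IV. They were compared with the wild-type Bristol strain N2 and the cec-4(ok3124) IV mutant. In every strain, eggs freed with hypochlorite hatched for 16 h in M9 buffer and the larvae then fed on OP50 bacteria for 2.5 h, and larvae without green signal from a balancer were used. The mutant lamin is a fusion to GFP made from the baf-1 promoter on top of the endogenous lmn-1 gene. Beyond the larval stage and the hatching and feeding times the labels give no age. They also give no insertion site and no statement of separate cultures. The p-values therefore measure the spread between libraries, which may be technical. Each genotype is 1 strain, and no strain with wild-type lamin fused to GFP was analysed here. The lamin mutation, the GFP fusion, extra lamin, the unc-119 rescue, the unc-119(ed-3) allele and anything else that the 2 transgene strains share cannot be told apart.

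Lamin forms the filament meshwork under the inner nuclear membrane, to which heterochromatin is attached. CEC-4 is a chromodomain protein of the nuclear envelope that binds methylated lysine 9 of histone H3 and so holds silent chromatin at the periphery of embryonic nuclei. The Y59C substitution in the worm lamin matches a human lamin A mutation of Emery-Dreifuss muscular dystrophy, a disease of muscle and heart. The BAF-1 protein binds DNA and lamin at the nuclear envelope, and its promoter is active in most cells.

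Library totals were 30924676 to 32695286 counts with the transgene and 30997254 to 57069281 without it. In CPM (counts scaled to a common library total, with TMM factors), the rescue marker unc-119 (WBGene00006843, chromosome III), a lipid-binding trafficking protein of neurons, was at 41.5 and 41.8 CPM in lamin Y59C and 43.1 and 43.3 CPM in lamin Y59C cec-4, against 23.4 and 22.5 CPM in wild-type and 24.3 and 22.4 CPM in cec-4 mutants. Every library with the transgene lay above every library without it, and the difference was 0.88 ± 0.04 on the log2 scale (SE; edgeR quasi-likelihood test, adjusted by Benjamini-Hochberg, adjusted p = 8.07e-06). The endogenous and transgenic lmn-1 are not separated in the counts. Together they were at 511 and 519 CPM in lamin Y59C and 488 and 523 CPM in lamin Y59C cec-4, against 442 and 453 CPM in wild-type and 429 and 473 CPM in cec-4 mutants, a difference of 0.18 ± 0.05 that did not pass (adjusted p = 0.0994), although the 2 sides did not overlap. The alternative test, DESeq2, did call lmn-1 (adjusted p = 0.0143). Transcripts of cec-4 were at 12.32 and 12.31 CPM in lamin Y59C and 4.35 and 4.61 CPM in lamin Y59C cec-4, against 14.5 and 12.7 CPM in wild-type and 5.04 and 4.76 CPM in the cec-4 mutant, so they were lower in both strains with the deletion. The baf-1 gene was at 64.3 and 61.1 CPM in lamin Y59C and 66 and 69.5 CPM in lamin Y59C cec-4, against 61.4 and 64.9 CPM in wild-type and 61.1 and 62.3 CPM in cec-4 mutants. Marker sums overlapped between the sides for 7 of 8 cell types. The 8 body wall muscle markers summed to 7279 to 7930 CPM with the transgene and 7407 to 8072 CPM without it, the 9 intestine markers to 10427 to 10990 CPM and 10365 to 11418 CPM, and the 10 neuron markers to 1988 to 2106 CPM and 1999 to 2104 CPM. The 7 hypodermis markers summed to 152.1 to 166.5 CPM with the transgene and 161.5 to 171.8 CPM without it, with a median difference of -0.24 over the 6 tested. The 8 germline markers were the exception, with sums of 119.9 to 123.7 CPM with the transgene and 107.6 to 119.6 CPM without it, which did not overlap (ratio of means 1.09). No marker was at 0, and aqp-8 of the excretory canal was the 1 marker called, beside 1.06% of all genes tested. Their part in the results below was not tested. In whole larvae, fewer cells of a type and less RNA per cell cannot be told apart.

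More genes were lower than higher with the transgene, and most differences were small. A gene was called at an adjusted p under 0.05. Of the 14355 genes tested, 50 were called higher (0.348%) and 102 lower (0.711%), together 1.06%. The gene lists below were written with earlier results of these data known, so their shares are description only. Before adjustment, 1073 higher and 1147 lower genes had a p under 0.05, which is 15.5% of all genes tested. The median difference was 0.51 (log2) among the genes called higher and -0.42 among those called lower. It was 0.00088 over all genes tested. Only 14 called genes differed by at least 1 on the log2 scale, 8 higher and 6 lower, and 90 differed by less than 0.5. For 140 of the 152 called genes the 4 libraries with the transgene did not overlap the 4 without it, which was so for 8.2% of all genes tested. The other 12 overlapped across the cec-4 backgrounds but were separate within each. Such separation within each background, in the same direction, held for all 152 called genes and for 13.2% of all genes tested. The called genes were chosen on these same values. Just inside the threshold lay pqn-62 and W05B10.4 (adjusted p = 0.0498 each), and just outside it dmd-9 and F10B5.2 (adjusted p = 0.0502 each).

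The transgene term averages 2 effects that share no library, lamin Y59C minus wild-type (CEC-4 present) and lamin Y59C cec-4 minus cec-4 mutant (CEC-4 absent). In a fit with 1 mean per group, the first effect alone called 73 genes (0.509%) and the second 111 (0.773%). Of the 73 genes, 62 differed in the same direction in the other background (84.9%), and of the 111 genes, 82 did (73.9%). Over all genes tested the share was 55.3%. The overlap of calls was 17 genes called the same way in both, which is 23.3% of the first list and 15.3% of the second. All 152 genes called for the term had the same sign in both effects, but the term is built from their sum, so this follows largely from the choice. Among the 152, 86 were called in neither effect alone.

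**Figure D1:**
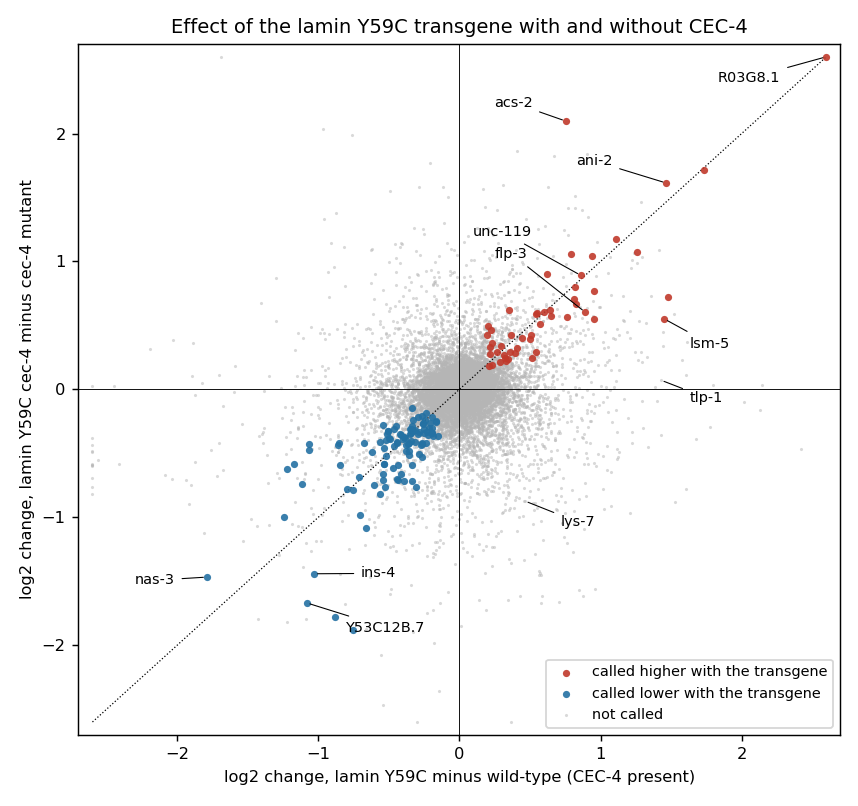
Each point is a gene, placed by its log2 change between lamin Y59C and wild-type (horizontal) and between lamin Y59C cec-4 and the cec-4 mutant (vertical); the 50 genes called higher for the transgene term are red, the 102 called lower are blue, and the dotted line marks equal change. Called genes lie in the upper right and lower left along the line, tlp-1 and lys-7 lie off it, and 16 genes beyond 2.6 on either axis, among them R03G8.1, are drawn at the edge.

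The count of calls rested on several libraries. With each library left out in turn, the genes called higher numbered 9 to 107 and those called lower 18 to 174. The lowest numbers came without lamin Y59C b (9 higher, 24 lower) and without lamin Y59C cec-4 a (15 higher, 18 lower), and the highest without cec-4 mutant b (107 higher, 174 lower). Without wild-type a there were 17 higher and 34 lower, and without cec-4 mutant a 16 higher and 23 lower. All 152 genes kept their sign under every setting tried, and 23 were called whichever library was left out. Of the 23, 16 were also called in both effects alone, 6 were not called in the effect with CEC-4 and 2 not in the effect without it. The sign kept by all 152 genes follows largely from their choice on these same libraries. The 23 genes are described first. The genes vha-7, let-756, prx-3 and kmo-1 among them, and ser-6 further on, lay outside the rule for named genes and were chosen after their values were seen.

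**Figure D2:**
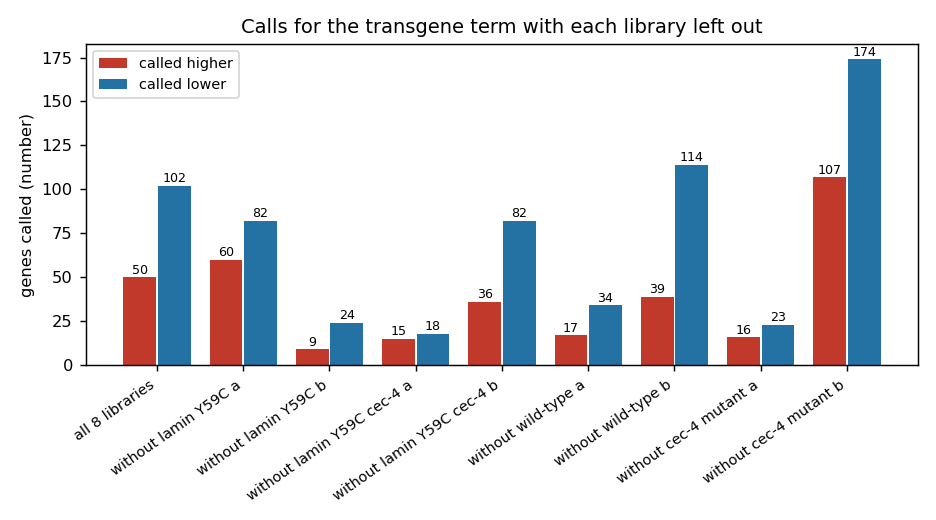
Number of genes called for the transgene term (vertical) with all 8 libraries and with each library left out (horizontal), red for higher and blue for lower with the transgene. The counts run between 9 and 107 for higher and between 18 and 174 for lower, and are lowest without lamin Y59C b or lamin Y59C cec-4 a.

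Among the genes that were higher with the transgene under every library left out, the anillin homolog ani-2 (WBGene00019608, chromosome II), which organises the shared cytoplasm of the germline, had the smallest p-value of all genes. It was at 23.1 and 21.5 CPM in lamin Y59C and 24.7 and 24.6 CPM in lamin Y59C cec-4, against 7.72 and 8.36 CPM in wild-type and 8.57 and 7.61 CPM in cec-4 mutants. The difference was 1.54 ± 0.06, adjusted p = 3.32e-06 (edgeR quasi-likelihood test, as all adjusted p-values below), and it was 1.47 with CEC-4 and 1.61 without it. It was the 1 of 15 anillin and cytokinesis genes tested that was called (6.67%, beside 1.06% of all genes), and no germline marker was called. At that share over all genes, an absence of further calls in lists of these sizes says little.

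The gene R03G8.1 (WBGene00010996, chromosome X) had counts only in libraries with the transgene. There were no counts in any of the 4 libraries without the transgene, and between 48 and 184 in each of the 4 with it, or 1.51 and 1.51 CPM in lamin Y59C and 5.64 and 3.62 CPM in lamin Y59C cec-4. Set against a floor of 3 counts over the 4 libraries without the transgene, it was at least 161-fold higher (adjusted p = 0.00112).

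The neuropeptide gene flp-3 (WBGene00001446, chromosome X) was at 94.5 and 100.1 CPM in lamin Y59C and 100.2 and 105 CPM in lamin Y59C cec-4, against 51.1 and 53.8 CPM in wild-type and 73.1 and 62 CPM in cec-4 mutants. The groups did not overlap, and the difference was 0.75 ± 0.07, adjusted p = 0.00173. Of 97 neuropeptide genes tested, flp-3 was the 1 called higher and flp-1 the 1 called lower, a share of 2.06% beside 1.06% of all genes. The delta-9 fatty acid desaturase fat-7 (WBGene00001399, chromosome V), which makes oleate from stearate, was at 54.1 and 62.9 CPM in lamin Y59C and 77.7 and 71.6 CPM in lamin Y59C cec-4, against 39.7 and 39.2 CPM in wild-type and 54.4 and 50.4 CPM in cec-4 mutants (0.54 ± 0.06, adjusted p = 0.00246). Here the cec-4 mutant also lay above wild-type, so the 2 sides met between lamin Y59C a and cec-4 mutant a while each background was separate. The cytochrome P450 gene cyp-36A1 (WBGene00007913, chromosome I) was at 18.4 and 20 CPM in lamin Y59C and 15.8 and 20 CPM in lamin Y59C cec-4, against 13.1 and 11.6 CPM in wild-type and 11.5 and 11.8 CPM in cec-4 mutants (0.63 ± 0.08, adjusted p = 0.00793). The gene srlf-12 (WBGene00045207, chromosome IV) was at 4.03 and 4.26 CPM in lamin Y59C and 3.71 and 4.06 CPM in lamin Y59C cec-4, against 1.57 and 2.18 CPM in wild-type and 2.09 and 1.39 CPM in cec-4 mutants (1.14 ± 0.15, adjusted p = 0.00829).

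Among the 15 genes that were lower with the transgene under every library left out, the astacin-family metalloprotease nas-3 (WBGene00003522, chromosome V) differed most. It was at 0.945 and 1.67 CPM in lamin Y59C and 0.981 and 0.896 CPM in lamin Y59C cec-4, against 4.71 and 4.38 CPM in wild-type and 2.62 and 2.59 CPM in cec-4 mutants, a difference of -1.65 ± 0.16, adjusted p = 0.00246. The wild-type libraries were higher than the cec-4 mutant libraries, and both lay above all 4 libraries with the transgene. The insulin-like peptide gene ins-4 (WBGene00002087, chromosome II) was at 4.35 and 3.6 CPM in lamin Y59C and 3.59 and 2.53 CPM in lamin Y59C cec-4, against 8.91 and 7.44 CPM in wild-type and 7.88 and 8.74 CPM in cec-4 mutants (-1.23 ± 0.14, adjusted p = 0.00403). It was the 1 called gene of 23 insulin-like peptides tested (4.35%, beside 1.06% of all genes). The gene Y53C12B.7 (WBGene00013146, chromosome II) was at 5.17 and 5.81 CPM in lamin Y59C and 2.67 and 3.23 CPM in lamin Y59C cec-4, against 11.8 and 11.4 CPM in wild-type and 9.91 and 8.87 CPM in cec-4 mutants (-1.35 ± 0.12, adjusted p = 0.00173). Its lowest libraries were those of lamin Y59C cec-4.

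Among the 15 were a water channel, a chloride channel and a proton pump subunit. The aquaporin aqp-8 (WBGene00000176, chromosome X), a water channel of the excretory canal, was at 35.6 and 38.8 CPM in lamin Y59C and 26.8 and 31 CPM in lamin Y59C cec-4, against 48.1 and 50.7 CPM in wild-type and 46.1 and 45 CPM in cec-4 mutants (-0.53 ± 0.07, adjusted p = 0.00751). It was the 1 of 5 excretory canal markers called, beside 1.06% of all genes. Those markers summed to 495.6 to 535.4 CPM with the transgene and 506.5 to 559.7 CPM without it. The chloride channel clh-1 was at 64.8 and 68.2 CPM in lamin Y59C and 58.7 and 63.8 CPM in lamin Y59C cec-4, against 80.5 and 81.3 CPM in wild-type and 77.2 and 77.4 CPM in cec-4 mutants (-0.31 ± 0.04, adjusted p = 0.00961). The vacuolar proton pump subunit vha-7 (WBGene00006916, chromosome IV) was at 40.5 and 44.1 CPM in lamin Y59C and 37.8 and 39.6 CPM in lamin Y59C cec-4, against 58 and 60.6 CPM in wild-type and 51.7 and 49.6 CPM in cec-4 mutants (-0.44 ± 0.05, adjusted p = 0.00287). All 3 were lower in each library with the transgene than in any without it.

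Enzymes and secreted proteins made up most of the others. The amine methyltransferase gene anmt-3 (WBGene00011573, chromosome V) was at 42.6 and 44.7 CPM in lamin Y59C and 35.1 and 39.7 CPM in lamin Y59C cec-4, against 78 and 65.1 CPM in wild-type and 62.5 and 57.5 CPM in cec-4 mutants (-0.70 ± 0.06, adjusted p = 0.00173). The metallothionein mtl-1, which binds heavy metals, was at 62 and 51 CPM in lamin Y59C and 47.6 and 45.4 CPM in lamin Y59C cec-4, against 90.5 and 74.5 CPM in wild-type and 74.3 and 72.6 CPM in cec-4 mutants (-0.60 ± 0.07, adjusted p = 0.00751). The lysozyme lys-2 was at 132 and 125 CPM in lamin Y59C and 116 and 118 CPM in lamin Y59C cec-4, against 155 and 165 CPM in wild-type and 146 and 147 CPM in cec-4 mutants (-0.32 ± 0.04, adjusted p = 0.00751). In all 3 the groups were separate, with the lamin Y59C cec-4 libraries lowest. The kynurenine monooxygenase kmo-1, of tryptophan breakdown, differed by -0.38 ± 0.05, adjusted p = 0.00861, the peroxisome biogenesis gene prx-3 by -0.37 ± 0.05, adjusted p = 0.00751, and the fibroblast growth factor gene let-756 by -0.31 ± 0.04, adjusted p = 0.00767. Means for let-756 were 114 ± 3.35 CPM in the libraries with the transgene and 141 ± 3.9 CPM in those without it (SD, n = 4 each).

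**Figure D3:**
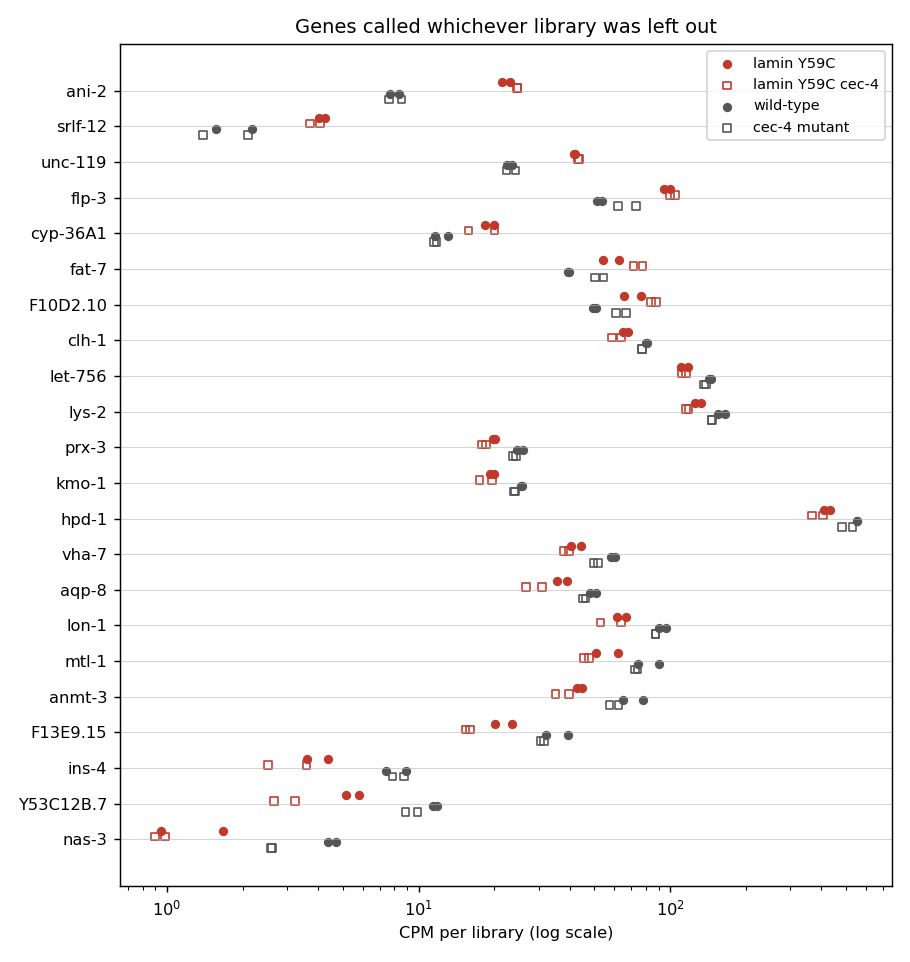
CPM on a log scale in each library for 22 of the 23 genes called whichever library was left out (R03G8.1, with no counts in the 4 libraries without the transgene, is not drawn); red marks libraries with the transgene, grey those without it, circles CEC-4 present and squares CEC-4 absent. Red and grey points are separate in every row except fat-7 and F10D2.10, where the cec-4 mutant squares reach the lamin Y59C circles; nas-3 lies lowest, at 0.896 to 1.67 CPM with the transgene.

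Several genes of hypoxia signalling and hydrogen sulfide handling were lower. HIF-1 is the hypoxia-inducible transcription factor, EGL-9 and RHY-1 restrain it, and cysteine synthase-like and sulfide oxidation enzymes are among the genes it switches on. Of 14 list members tested, 4 were called lower and none higher, a share of 28.6% beside 1.06% of all genes, and the median difference was -0.31 beside 0.00088 over all genes. This list was written with earlier results of these data known, so the share is description only. The 4 were rhy-1, cysl-2, cysl-3 and sqrd-1. The gene rhy-1 (WBGene00012324, chromosome II) was at 5.01 and 6.09 CPM in lamin Y59C and 4.32 and 4.35 CPM in lamin Y59C cec-4, against 7.41 and 7.58 CPM in wild-type and 7.03 and 7.14 CPM in cec-4 mutants (-0.57 ± 0.09, adjusted p = 0.0229). The cysteine synthase-like gene cysl-2 (WBGene00010759) was at 73.6 and 70 CPM in lamin Y59C and 62.9 and 75.2 CPM in lamin Y59C cec-4, against 97.9 and 87 CPM in wild-type and 88.4 and 97.4 CPM in cec-4 mutants (-0.40 ± 0.06, adjusted p = 0.0212). In both, each library with the transgene lay below each library without it. The sulfide:quinone oxidoreductase sqrd-1 was at 8.29 and 8.05 CPM in lamin Y59C and 6.96 and 6.3 CPM in lamin Y59C cec-4, against 13.3 and 9.6 CPM in wild-type and 9.58 and 10.6 CPM in cec-4 mutants (-0.54 ± 0.11, adjusted p = 0.0452), and cysl-3 differed by -0.33 ± 0.06, adjusted p = 0.0292. The regulator egl-9 (difference -0.14, adjusted p = 0.139), the carbonic anhydrase cah-4 (-0.24, adjusted p = 0.109) and the nuclear receptor nhr-57 (-0.28, adjusted p = 0.216) were not called, and hif-1 itself differed by -0.06 (adjusted p = 0.767). The calls of rhy-1, cysl-2, cysl-3 and sqrd-1 reached an adjusted p of up to 0.112, 0.0952, 0.123 and 0.142 with a library left out, in that order. The count of 4 became 0 without wild-type a, without cec-4 mutant a or without lamin Y59C cec-4 a. It became 1 without lamin Y59C b or without lamin Y59C cec-4 b.

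A pair of enzymes that break down tyrosine were lower as well. This list was put together after values of these data were seen. Of its 6 tested members 2 were called lower (33.3%, beside 1.06% of all genes), with all 6 on the lower side and a median of -0.25. The 4-hydroxyphenylpyruvate dioxygenase hpd-1 (WBGene00001993, chromosome III), which acts early in the pathway, was at 411 and 432 CPM in lamin Y59C and 367 and 406 CPM in lamin Y59C cec-4, against 555 and 555 CPM in wild-type and 531 and 483 CPM in cec-4 mutants (-0.39 ± 0.05, adjusted p = 0.00793) and is among the 23 genes called whichever library was left out. The next enzyme, homogentisate dioxygenase hgo-1 (WBGene00001843, chromosome I), was at 109 and 105 CPM in lamin Y59C and 99.2 and 99.7 CPM in lamin Y59C cec-4, against 128 and 126 CPM in wild-type and 118.9 and 117 CPM in cec-4 mutants (-0.24 ± 0.04, adjusted p = 0.0133). Both genes had separate groups. The call of hgo-1 was lost without lamin Y59C b, lamin Y59C cec-4 a, wild-type a or cec-4 mutant a (adjusted p up to 0.0861). The tyrosine aminotransferase tatn-1 was at 252 and 217 CPM in lamin Y59C and 139 and 132 CPM in lamin Y59C cec-4, against 276 and 243 CPM in wild-type and 254 and 239 CPM in cec-4 mutants. Its difference of -0.50 ± 0.13 did not pass (adjusted p = 0.0993), and its low libraries were those of lamin Y59C cec-4. The maleylacetoacetate isomerase gst-42 (-0.25, adjusted p = 0.0574), fah-1 (-0.05) and pah-1 (-0.03) were not called.

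Of the TGF-beta pathway that sets body size, 2 of 14 tested members were called lower (14.3%, beside 1.06% of all genes), with a list median of -0.10. The secreted protein gene lon-1 (WBGene00003055, chromosome III), which acts in the hypodermis and is repressed by the pathway, was at 61.8 and 67 CPM in lamin Y59C and 52.8 and 64 CPM in lamin Y59C cec-4, against 90.3 and 96.2 CPM in wild-type and 87.5 and 87.4 CPM in cec-4 mutants (-0.56 ± 0.06, adjusted p = 0.00287). The type II receptor daf-4 was at 99 and 97.8 CPM in lamin Y59C and 92.7 and 93.5 CPM in lamin Y59C cec-4, against 124 and 113 CPM in wild-type and 107 and 108 CPM in cec-4 mutants (-0.24 ± 0.04, adjusted p = 0.0294). The ligand dbl-1 (-0.18, adjusted p = 0.103) and the cofactor sma-9 (-0.17, adjusted p = 0.0994) were not called, and the receptor sma-6 differed by 0.12. The lon-1 call held without any single library. That of daf-4 was lost without each library in turn except lamin Y59C cec-4 b, wild-type b and cec-4 mutant b (adjusted p up to 0.121).

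The proton-coupled inositol transporters hmit-1.1 and hmit-1.2, which respond to osmotic stress, were the 2 of 15 osmotic stress and glycerol genes called. This share was 13.3%, beside 1.06% of all genes, and the list median was -0.24. The gene hmit-1.1 (WBGene00013073, chromosome V) was at 13 and 17.4 CPM in lamin Y59C and 19.9 and 25 CPM in lamin Y59C cec-4, against 29.3 and 34.3 CPM in wild-type and 34.3 and 28.3 CPM in cec-4 mutants (-0.77 ± 0.14, adjusted p = 0.0356). The gene hmit-1.2 was at 2.46 and 2.71 CPM in lamin Y59C and 3 and 3.3 CPM in lamin Y59C cec-4, against 4.9 and 4.51 CPM in wild-type and 4.28 and 4.13 CPM in cec-4 mutants (-0.64 ± 0.12, adjusted p = 0.0338). In both the lamin Y59C libraries were lowest. The differences were -1.07 with CEC-4 and -0.48 without it for hmit-1.1, and -0.86 with CEC-4 and -0.42 without it for hmit-1.2. The glycerol-3-phosphate dehydrogenase gpdh-2 (-0.24, adjusted p = 0.0971) and hmit-1.3 (-0.20, adjusted p = 0.115) were not called. The hmit-1.1 call was lost without each library in turn except lamin Y59C a, lamin Y59C cec-4 b and cec-4 mutant b (adjusted p up to 0.142), and the hmit-1.2 call without each library in turn except lamin Y59C cec-4 b and cec-4 mutant b (adjusted p up to 0.123).

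Among genes of the nervous system, the acetylcholinesterase ace-1 (WBGene00000035, chromosome X), which ends cholinergic signals at muscle, was lower. It was at 25.4 and 26 CPM in lamin Y59C and 26.4 and 24.9 CPM in lamin Y59C cec-4, against 37.4 and 36.1 CPM in wild-type and 35.3 and 30.1 CPM in cec-4 mutants (-0.43 ± 0.06, adjusted p = 0.012). It was the 1 of 20 cholinergic genes called (5%, beside 1.06% of all genes). Its call was lost without lamin Y59C b or cec-4 mutant a (adjusted p up to 0.0696). The neuropeptide gene flp-1 was at 163 and 168 CPM in lamin Y59C and 144 and 152 CPM in lamin Y59C cec-4, against 198 and 191 CPM in wild-type and 198 and 177 CPM in cec-4 mutants (-0.28 ± 0.05, adjusted p = 0.027), and the octopamine receptor ser-6 differed by -0.44 ± 0.07, adjusted p = 0.0179. The soluble guanylyl cyclase gcy-37, of oxygen-sensing neurons, was higher, at 14 and 15.7 CPM in lamin Y59C and 16.1 and 15.6 CPM in lamin Y59C cec-4, against 10.4 and 10.5 CPM in wild-type and 13 and 11.2 CPM in cec-4 mutants (0.45 ± 0.07, adjusted p = 0.0177). The flp-1 call was lost without lamin Y59C b, lamin Y59C cec-4 a, wild-type a or cec-4 mutant a (adjusted p up to 0.123), that of ser-6 without lamin Y59C b, lamin Y59C cec-4 a, wild-type a or cec-4 mutant a (adjusted p up to 0.0781) and that of gcy-37 without lamin Y59C b, lamin Y59C cec-4 a or wild-type a (adjusted p up to 0.0824).

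Other called genes by size of difference included, among the lower ones, the bestrophin best-5 (-0.74 ± 0.13), the phosphatase pgph-2 (-0.68 ± 0.11), the saposin-like spp-2 (-0.62 ± 0.10), the C-type lectin clec-48 (-0.57 ± 0.11) and the short-chain dehydrogenase dhs-21 (-0.55 ± 0.07). Another was ZK218.1, which averaged 9.3 ± 3.23 CPM in the libraries with the transgene and 22.3 ± 5.77 CPM in those without it (SD, n = 4 each). Among the higher ones were the beta-tubulin tbb-6 (0.76 ± 0.12), the P-glycoprotein transporter pgp-1 (0.38 ± 0.06), the short-chain dehydrogenase dhs-5 (0.34 ± 0.06), the methanethiol oxidase semo-1 (0.35 ± 0.07), R11D1.3 (0.99 ± 0.15) and F18E3.11 (0.76 ± 0.11). The groups did not overlap in any of these 12 genes. The call of dhs-21 was lost without lamin Y59C cec-4 a (adjusted p up to 0.057), that of pgph-2 without lamin Y59C cec-4 a or cec-4 mutant a (adjusted p up to 0.0982), and that of spp-2 without lamin Y59C b, lamin Y59C cec-4 a or cec-4 mutant a (adjusted p up to 0.091). For best-5 it was lost without each library in turn except lamin Y59C cec-4 b, cec-4 mutant a and cec-4 mutant b (adjusted p up to 0.104), for ZK218.1 without each library in turn except lamin Y59C a, wild-type a and cec-4 mutant b (adjusted p up to 0.142) and for clec-48 without each library in turn except wild-type b (adjusted p up to 0.145). Among the higher genes, tbb-6 lost its call without lamin Y59C b, wild-type a or cec-4 mutant a (adjusted p up to 0.0861), pgp-1 without lamin Y59C b, wild-type a, wild-type b or cec-4 mutant a (adjusted p up to 0.0935) and dhs-5 without each library in turn except lamin Y59C a and cec-4 mutant b (adjusted p up to 0.142). The call of semo-1 was lost without each library in turn except lamin Y59C a (adjusted p up to 0.142), that of R11D1.3 without lamin Y59C b or lamin Y59C cec-4 a (adjusted p up to 0.072) and that of F18E3.11 without lamin Y59C b or lamin Y59C cec-4 a (adjusted p up to 0.0654).

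Small heat shock proteins, chaperones that bind unfolded proteins under stress, showed 2 called members of 10 tested (20%, beside 1.06% of all genes), both higher. This short list was put together after values of these data were seen, and the wider list of heat shock proteins had the same 2 called of 22 tested (9.09%; median 0.09). The gene hsp-16.41 (WBGene00002018, chromosome V) was at 37.7 and 33.9 CPM in lamin Y59C and 18.7 and 29.1 CPM in lamin Y59C cec-4, against 18.7 and 22.4 CPM in wild-type and 13.8 and 9.34 CPM in cec-4 mutants (0.91 ± 0.15, adjusted p = 0.0212). The gene hsp-16.2 was at 48.7 and 42.7 CPM in lamin Y59C and 22.1 and 37.2 CPM in lamin Y59C cec-4, against 23.2 and 28.3 CPM in wild-type and 19.2 and 14.9 CPM in cec-4 mutants (0.81 ± 0.15, adjusted p = 0.0331). The 2 sides overlapped in both genes, since lamin Y59C cec-4 a was at the level of the wild-type libraries. The hsp-16 genes are close copies of each other, so their counts may be shared. The list members hsp-16.1 and hsp-16.48 had 0 counts in all 8 libraries and so were not among those tested. How reads that match several gene copies were counted was not given, so 0 counts here need not mean no transcript. The median of the 10 was 0.02, and hsp-17 at 0.23 (adjusted p = 0.166) was not called. The hsp-16.41 call was lost without lamin Y59C b, wild-type a or cec-4 mutant a (adjusted p up to 0.079) and the hsp-16.2 call without lamin Y59C a, lamin Y59C b, wild-type a or cec-4 mutant a (adjusted p up to 0.101).

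UDP-glucuronosyltransferase genes lay mostly on the higher side, with few calls. Of 64 UDP-glucuronosyltransferase genes tested, which attach sugars to foreign and lipophilic compounds, 52 were on the higher side with a median of 0.21. Of these, ugt-30 (0.61 ± 0.11, adjusted p = 0.0331) and ugt-2 (0.32 ± 0.06, adjusted p = 0.0438) were called (3.12% of the 64, beside 1.06% of all genes). The ugt-30 call was lost without each library in turn except cec-4 mutant b (adjusted p up to 0.121) and the ugt-2 call without each library in turn except wild-type a (adjusted p up to 0.129). Among 68 cytochrome P450 genes, cyp-36A1 and cyp-33C8 (0.34 ± 0.06, adjusted p = 0.0276) were called (2.94%, beside 1.06% of all genes), and the list median was -0.02. The cyp-33C8 call was lost without each library in turn except lamin Y59C a, cec-4 mutant a and cec-4 mutant b (adjusted p up to 0.0935). The acyl-CoA synthetase acs-2 (WBGene00009221, chromosome V), which feeds fatty acids into mitochondrial oxidation and responds to fasting, was at 15.8 and 20.6 CPM in lamin Y59C and 19.7 and 33.2 CPM in lamin Y59C cec-4, against 12.9 and 9 CPM in wild-type and 6.41 and 5.97 CPM in cec-4 mutants (1.39 ± 0.27, adjusted p = 0.045). Its difference was 0.75 with CEC-4 and 2.097 without it, and its call was lost without each library in turn except lamin Y59C a, lamin Y59C cec-4 b and wild-type a (adjusted p up to 0.162). Of 16 fasting response genes, acs-2 was called higher and the lipase gene fil-1 lower (-0.43 ± 0.08, adjusted p = 0.045). Together they were 12.5%, beside 1.06% of all genes, with a list median of 0.09. The fil-1 call was lost without each library in turn except lamin Y59C cec-4 b and cec-4 mutant b (adjusted p up to 0.158).

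**Figure D4:**
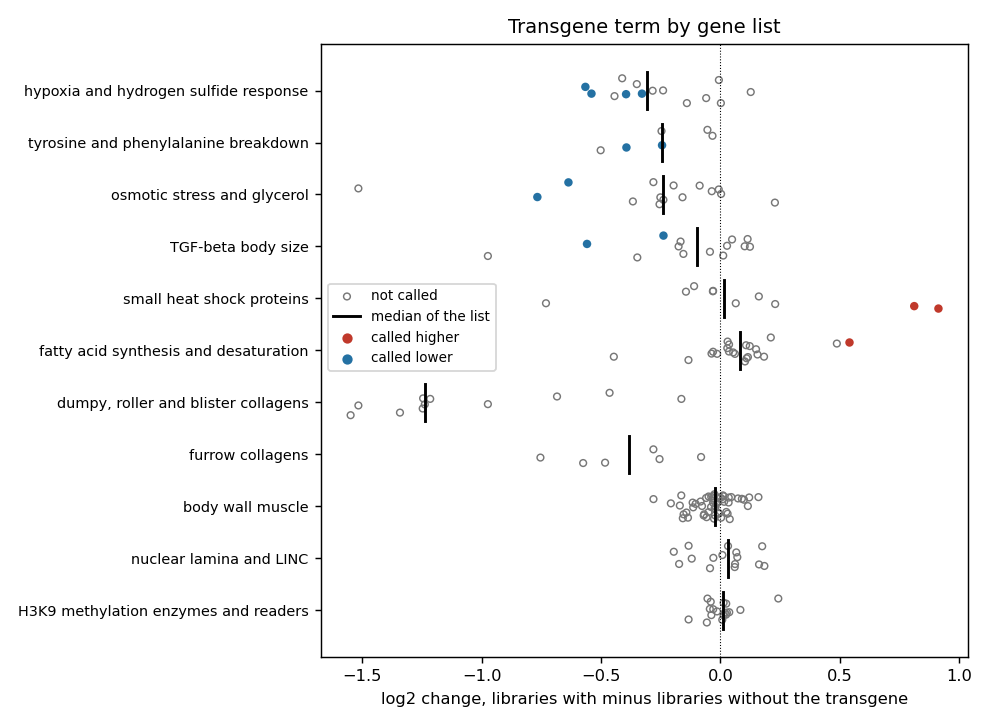
Log2 change for the transgene term (horizontal) of each tested member of 11 gene lists (rows); red and blue filled points were called higher and lower, open points were not called, and black bars are list medians. The hypoxia and hydrogen sulfide list has 4 called members and a median of -0.31, while no body wall muscle, lamina or H3K9 gene was called and their medians lie between -0.02 and 0.03. Over all genes tested 1.06% were called.

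Genes of the systems to which the mutated protein belongs were not called for the transgene term by edgeR. None of 15 nuclear lamina and LINC complex genes, 18 H3K9 methylation enzymes and readers, 26 nuclear pore genes or 54 body wall muscle genes tested was called. Over all genes tested 1.06% were called, so an absence of calls in lists of these sizes says little about them. Unadjusted p was under 0.05 for 5 lamina genes, 2 H3K9 genes, 5 nuclear pore genes and 9 muscle genes, beside 15.5% of all genes tested. Nuclear pore genes lay on the higher side in 22 of 26 cases, with a median of 0.05. DESeq2, which called 363 genes in all where edgeR called 152, called 1 of the lamina genes and 4 of the muscle genes. Its calls took in lmn-1, whose counts include the transgene (DESeq2 adjusted p = 0.0143), tni-3 (0.00639) and unc-22 (0.0092). Muscle genes lay on the lower side in 36 of 54 cases, with a median of -0.02. The troponin I gene tni-3 was at 54.9 and 52.6 CPM in lamin Y59C and 44.4 and 52 CPM in lamin Y59C cec-4, against 64.6 and 59.6 CPM in wild-type and 59.4 and 63.7 CPM in cec-4 mutants, a difference of -0.28 ± 0.06 that did not pass (adjusted p = 0.0585). The giant kinase twitchin, unc-22, was at 859 and 854 CPM in lamin Y59C and 844 and 827 CPM in lamin Y59C cec-4, against 1026 and 1033 CPM in wild-type and 867 and 986 CPM in cec-4 mutants (-0.21 ± 0.05, adjusted p = 0.0994). The inner nuclear membrane gene samp-1 differed by 0.16 ± 0.05 (adjusted p = 0.165). Among 79 cytosolic ribosomal protein genes, 33 proteasome subunits and 43 oxidative phosphorylation genes none was called either by edgeR, and 1 in all (of oxidative phosphorylation) had an unadjusted p under 0.05.

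No dumpy, roller or blister collagen was called for the transgene term, although their values were low in the lamin Y59C libraries. These collagens shape the body through the cuticle, and all 11 tested lay on the lower side, with a median of -1.24. The edgeR test called none, beside 1.06% of all genes, and DESeq2 called 5, beside 363 genes in all. An unadjusted edgeR p under 0.05 held for 8 of the 11, beside 15.5% of all genes tested. In the fit with 1 mean per group, the average of both effects called 7 of the 11, beside 281 of the 14355 genes tested. The effect with CEC-4 alone called 6, beside 0.509% of all genes, and the effect without CEC-4 alone 0, beside 0.773%. The gene dpy-4 was at 0.063 and 0.347 CPM in lamin Y59C and 1.23 and 1.06 CPM in lamin Y59C cec-4, against 1.73 and 1.61 CPM in wild-type and 1.93 and 2.09 CPM in cec-4 mutants. The gene dpy-13 was at 0.252 and 0.757 CPM in lamin Y59C and 1.65 and 1.28 CPM in lamin Y59C cec-4, against 2.07 and 2.22 CPM in wild-type and 1.99 and 2.64 CPM in cec-4 mutants. In both, the lamin Y59C libraries were lowest and the lamin Y59C cec-4 libraries lay between these and the others. The differences were -1.55 ± 0.37 for dpy-4 (adjusted p = 0.0835) and -1.25 ± 0.30 for dpy-13 (adjusted p = 0.0894). The hypodermis marker sums given above, 152.1 to 171.8 CPM over the libraries, overlapped between the sides. That marker set itself holds the collagen genes rol-6 and bli-1, and rol-6 was at only 0.032 to 2.88 CPM. The sums therefore say little about these collagens, and the part of the hypodermis in these values was not tested.

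Of 85 numbered col collagens tested, 1 was called higher and 1 lower (2.35%, beside 1.06% of all genes), with 32 on the higher side, 53 on the lower side and a median of -0.07. The gene col-77 (WBGene00000653, chromosome II) was lower, at 4.63 and 6.34 CPM in lamin Y59C and 3.06 and 4.13 CPM in lamin Y59C cec-4, against 15 and 10.8 CPM in wild-type and 4.84 and 6.17 CPM in cec-4 mutants (-0.96 ± 0.18, adjusted p = 0.0379), and the 2 sides overlapped. The gene col-142 (WBGene00000715, chromosome V) was higher, at 2.05 and 1.8 CPM in lamin Y59C and 1.69 and 1.7 CPM in lamin Y59C cec-4, against 0.628 and 0.728 CPM in wild-type and 1.28 and 0.811 CPM in cec-4 mutants (1.097 ± 0.20, adjusted p = 0.0375), and the 2 sides were separate. The col-77 call was lost without each library in turn except lamin Y59C cec-4 b and cec-4 mutant b (adjusted p up to 0.142) and the col-142 call without each library in turn except cec-4 mutant a and cec-4 mutant b (adjusted p up to 0.121). The 6 furrow collagens tested were not called by edgeR, and all lay on the lower side (median -0.38). An unadjusted p under 0.05 held for 1 of them, beside 15.5% of all genes tested. Cuticle collagen genes are known to be expressed in waves between moults.

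By position, called genes were most frequent on chromosome V, with 24 higher and 30 lower of 3046 tested (1.77%), and least frequent on chromosome I, with 4 higher and 7 lower of 2155 (0.51%). On chromosome X 2 genes were higher and 16 lower (0.846%). Some called genes were neighbours. Among 151 called genes with a position, 17 (11.3%) stood next to another called gene, compared with 1.68% of all genes tested, in 9 adjacent pairs of which 8 moved the same way. Whether counting used the strand is not stated in the labels, so reads of overlapping or read-through transcripts of neighbours may be shared. The number of pairs was 2 to 15 with a library left out, lowest without cec-4 mutant a and highest without cec-4 mutant b.

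The gene him-5 on chromosome V, which promotes meiotic crossovers on the X chromosome, was at 2.36 and 3.53 CPM in lamin Y59C and 3.59 and 3.94 CPM in lamin Y59C cec-4, against 6.91 and 5.96 CPM in wild-type and 6.9 and 5.73 CPM in cec-4 mutants (-0.93 ± 0.14, adjusted p = 0.0168). The 2 genes that follow it on the same strand were also lower, D1086.3 (-0.88 ± 0.17, adjusted p = 0.0399) and D1086.8 (-0.35 ± 0.07, adjusted p = 0.0394). The gene before it, D1086.5, was at 5.23 and 6.18 CPM in lamin Y59C and 7.88 and 8.67 CPM in lamin Y59C cec-4, against 14 and 11.6 CPM in wild-type and 11.9 and 9.65 CPM in cec-4 mutants, but its difference of -0.76 ± 0.16 did not pass (adjusted p = 0.0523). The genes beyond D1086.8 were not called. The him-5 call was lost without lamin Y59C b, lamin Y59C cec-4 a or cec-4 mutant a (adjusted p up to 0.0793), that of D1086.3 without each library in turn except lamin Y59C cec-4 b and cec-4 mutant b (adjusted p up to 0.146) and that of D1086.8 without each library in turn except wild-type b (adjusted p up to 0.147).

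The gene lsm-5, for an Sm-like protein that binds RNA (WBGene00003079, chromosome V) follows acs-2 on the same strand. It was at 78.5 and 76.4 CPM in lamin Y59C and 41.9 and 37.4 CPM in lamin Y59C cec-4, against 28.4 and 28.3 CPM in wild-type and 28.1 and 26.1 CPM in cec-4 mutants (1.02 ± 0.15, adjusted p = 0.0147). All 4 libraries with the transgene were higher, those with CEC-4 most. The differences were 1.45 with CEC-4 and 0.55 without it. The next gene on that strand, the F-box gene fbxa-95, was at 5.83 and 5.52 CPM in lamin Y59C and 3.31 and 2.91 CPM in lamin Y59C cec-4, against 2.48 and 2.18 CPM in wild-type and 2.71 and 2.67 CPM in cec-4 mutants and was not called (0.79 ± 0.20, adjusted p = 0.0941). Genes on either side of this run differed by 0.23 or less. The lsm-5 call was lost without lamin Y59C b, lamin Y59C cec-4 a or wild-type a (adjusted p up to 0.0666).

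The desaturase gene fat-7 stands next to F10D2.10 on the same strand, which was at 65.6 and 76.7 CPM in lamin Y59C and 88 and 83.8 CPM in lamin Y59C cec-4, against 50.8 and 49.3 CPM in wild-type and 66.8 and 61 CPM in cec-4 mutants (0.47 ± 0.06, adjusted p = 0.00721). The 2 genes had nearly the same difference in both backgrounds, 0.57 with CEC-4 and 0.51 without it for fat-7 and 0.51 with CEC-4 and 0.43 without it for F10D2.10. The other tested genes up to 4 places on either side of fat-7 differed by 0.23 to 0.56 and were not called. The opposite case was F13E9.15 beside srlf-12 on chromosome IV, where F13E9.15 was lower, at 20.1 and 23.6 CPM in lamin Y59C and 16 and 15.4 CPM in lamin Y59C cec-4, against 39.4 and 32 CPM in wild-type and 31.6 and 30.5 CPM in cec-4 mutants (-0.84 ± 0.09, adjusted p = 0.00246), and srlf-12 higher. All 4 of these genes were called whichever library was left out. The heat shock pair hsp-16.2 and hsp-16.41 and the transporter pair hmit-1.1 and hmit-1.2 were also neighbours, as were clh-1 with T27D12.1 (-0.56) and srap-1 (-0.38) with F37H8.5 (-0.20). The T27D12.1 call was lost without lamin Y59C cec-4 a or cec-4 mutant a (adjusted p up to 0.0673), the srap-1 call without lamin Y59C b or cec-4 mutant a (adjusted p up to 0.0824) and the F37H8.5 call without each library in turn except cec-4 mutant b (adjusted p up to 0.143).

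**Figure D5:**
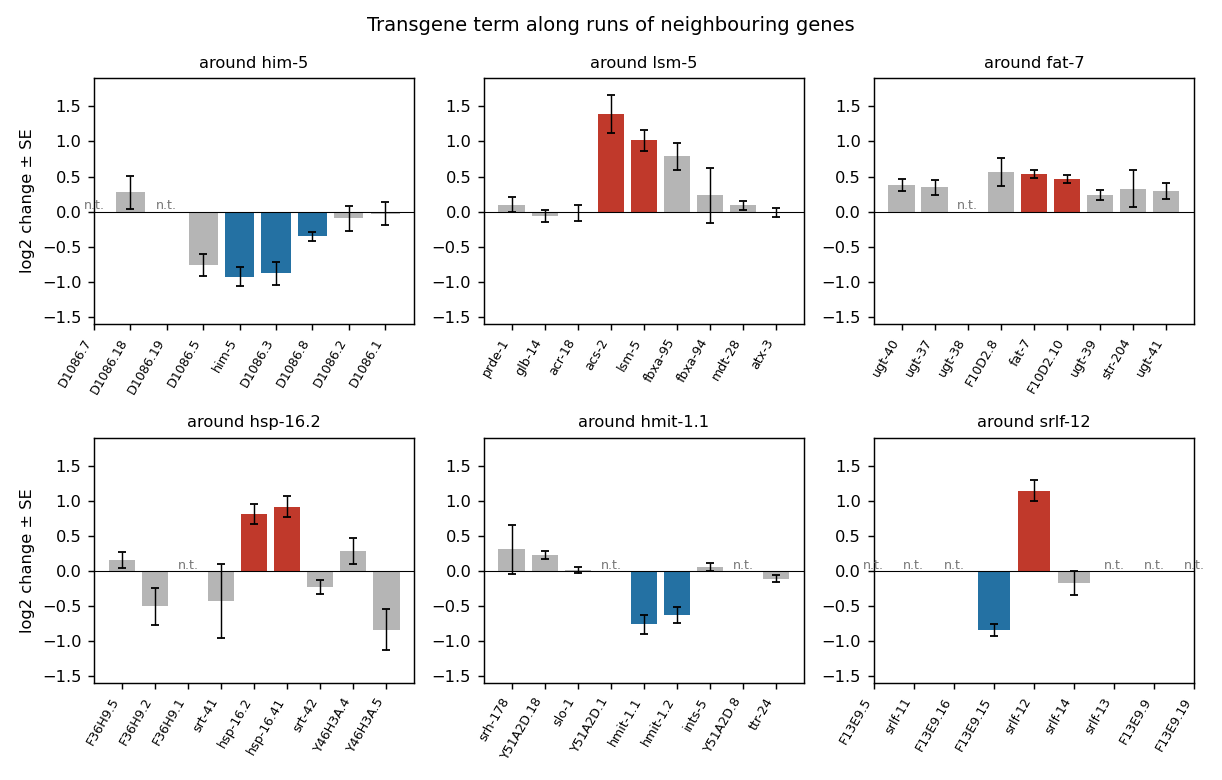
Log2 change for the transgene term with its SE (vertical) for genes in their order along the chromosome (horizontal) around 6 loci; red bars were called higher, blue bars lower, grey bars not called, and n.t. marks genes too low to be tested. Called genes stand next to each other at him-5, D1086.3 and D1086.8, which were all lower, every tested gene shown around fat-7 lies above 0, and F13E9.15 and srlf-12 point in opposite directions.

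An average over both backgrounds does not describe genes whose lamin effect differs between them. The interaction, the lamin effect without CEC-4 minus that with it, was called for 5 genes (0.0348% of those tested), of which lsm-5 alone was also called for the transgene term. The cec-4 term of the additive model was called for 3 genes (0.0209%). At an unadjusted p under 0.05 the interaction took in 21 of the 152 called genes (13.8%) and 10.1% of all genes tested. The gene tlp-1, a zinc-finger gene of tail patterning, was at 81.1 and 79.9 CPM in lamin Y59C and 34 and 30.9 CPM in lamin Y59C cec-4, against 29.8 and 30.1 CPM in wild-type and 32 and 29.7 CPM in cec-4 mutants. It was high in lamin Y59C alone, and its transgene term of 0.78 ± 0.22 did not pass (adjusted p = 0.134).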

How the data were processed

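Total RNA of 8 libraries was read as 50 bp single-end reads from a stranded kit, per the labels' protocols. Per the submitters' processing notes, Bowtie, the ce10 build and edgeR 3.24.0 were used. The authors deposited raw counts per gene, used here, and a log2 normalized table, not used. The counting tool, annotation and strand setting were not given in the sources used here.

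The deposited counts were tested with edgeR 4.0.16 (R 4.3.3). Of 20392 genes, 1612 had no counts; filterByExpr on the 4 groups removed 6037 genes, with 0.0278% of all counts, and left 14355. After TMM scaling, a quasi-likelihood F-test (two-sided) of the transgene term was fitted with an additive design of transgene and cec-4, with 5 residual and 5.29 prior degrees of freedom and a common dispersion of 0.00526. P-values were adjusted by Benjamini-Hochberg over all genes tested, and called under 0.05. The SE was worked out as the change over the root of its F value. The effects with and without CEC-4 and the interaction came from 1 mean per group. SD is over the 4 libraries of a side. Replicates were compared for duplication: library pairs differed beyond counting noise (chi-square per degree of freedom 6.70 to 12.6), with r of log2 CPM across genes of 0.994 to 0.996.

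Genes were named by rule: the genotype genes, the 12 largest rises and 12 largest falls among calls with at least 5 CPM on a side and no overlap, at most 2 per direction with sequence names, up to 4 called members per list (or 2 uncalled), and called neighbours. Members and lists were chosen with earlier results of these data known. Symbols were matched by gene ID for 19182 genes, and chromosome and gene order for 19870, from a WBcel235 annotation, so no coordinates are given. Alternatives were RLE factors, library totals, 2 filters, DESeq2 1.42.0, limma-voom (limma 3.58.1), designs without the cec-4 term, with 1 mean per group or with a replicate block, each effect alone, and each library left out. Promoter motifs were not analysed here.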

Additional observations from a re-analysis of the deposited data

Results flagged for a closer look

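The difference of the lamin effect between cec-4 backgrounds (lamin effect without CEC-4 minus lamin effect with it) passed its own test for 5 genes (edgeR quasi-likelihood test of the interaction, Benjamini-Hochberg adjustment over 14355 genes). For tlp-1 it was -1.35 (adjusted p = 0.000643), and the call held with each library left out. For the lysozyme lys-7 it was -1.33 (adjusted p = 0.00983), with 255 and 244 CPM in lamin Y59C and 86.8 and 105 CPM in lamin Y59C cec-4, against 175 and 187 CPM in wild-type and 163 and 187 CPM in cec-4 mutants, so lys-7 was above its control strain with CEC-4 and below it without. For lsm-5 it was -0.90 (adjusted p = 0.0161), the transcript being higher with the transgene in both backgrounds. For the C-type lectin clec-42 it was -1.15 (adjusted p = 0.0476), with 348 and 293 CPM in lamin Y59C and 188 and 170.0 CPM in lamin Y59C cec-4, against 243 and 260.4 CPM in wild-type and 281 and 342 CPM in cec-4 mutants. For the claudin-like gene clc-11 it was -1.11 (adjusted p = 0.0476), with 14.5 and 12.56 CPM in lamin Y59C and 9.5 and 9.95 CPM in lamin Y59C cec-4, against 10 and 11.2 CPM in wild-type and 16.5 and 16.4 CPM in cec-4 mutants. The lys-7 call was lost without lamin Y59C a or wild-type a (adjusted p up to 0.0699). The lsm-5 call was lost without lamin Y59C a, lamin Y59C cec-4 b, wild-type a or wild-type b (adjusted p up to 0.131). The clec-42 call was kept only without lamin Y59C b or cec-4 mutant a, and otherwise reached an adjusted p of up to 0.300. The clc-11 call was kept only without lamin Y59C b, and otherwise reached an adjusted p of up to 0.232. No cause of these differences was tested.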

How the results depend on the processing

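The count of genes called for the transgene term (152) stayed within 1.5 times under RLE factors, library totals, both other filters, limma-voom and the lamin effect without CEC-4 alone. The genes behind a similar count were not always the same. Of the 50 higher and 102 lower calls, the effect without CEC-4 alone kept 15 and 33, and library totals 34 and 78. RLE factors, both filters and limma-voom kept 47 to 50 of the higher and 85 to 102 of the lower calls. DESeq2 called 363 (224 lower), the average effect with 1 mean per group 281 (177 lower), the fit without the cec-4 term 95 (64 lower) and the lamin effect with CEC-4 alone 73 (40 lower). Leaving out 1 library gave 33 to 281 calls. The cause was not tested. For the lamin effect with CEC-4 (73 calls), no filter gave 159, DESeq2 234 and a library left out 8 to 178. For the effect without CEC-4 (111 calls), no filter gave 212, DESeq2 250 and a library left out 11 to 140. For the interaction (5 calls), no filter gave 34, a mean of at least 1 CPM 3, DESeq2 75 and a library left out 1 to 35. A library left out of a group leaves 1 there, assumed to vary like the others.

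With the replicate letter as a block, 83 genes were called (29 higher, 54 lower), 27 for the effect with CEC-4, 58 for the effect without it and 4 for the interaction. The labels give the letters no meaning, and the a minus b differences of the groups correlated from -0.48 to 0.45 across genes, so the letters were not taken to pair the libraries; shared batches were not tested. Of the 23 genes called whichever library was left out, 21 were also called under the 9 other settings that fit the term to all 8 libraries; fat-7 and F10D2.10 were lost without the cec-4 term.

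Genes that changed sign were not called for the term. They were baf-1 (-0.013), lys-7 (0.46), clec-42 (0.35) and clc-11 (0.34) in the effect with CEC-4 alone, and lys-7 (0.013) without lamin Y59C cec-4 a, whose range with a library left out was -0.38 to 0.013. Adjacent called pairs numbered 9, but 3 with the block or without the cec-4 term, 20 with 1 mean per group and 29 by DESeq2. Scaling by library totals moved the median of all genes by -0.00585. The dumpy collagens dpy-4 and dpy-13 had under 3 CPM, which limits their precision.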
